A study of Drosophila melanogaster with 9 samples.

Results

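Glutamate receptors were followed in the larval CNS of *Drosophila melanogaster* across 3 genotypes. The 8 genes were *GluRIA*, *GluRIB*, *Nmdar1*, *Nmdar2*, *KaiR1D*, *Grik*, *clumsy* and *mGluR*, chosen by name, and they were read by 10 probe sets out of 18769 on the array. They are 8 of the 11982 genes that a probe set names singly. *GluRIB* and *Nmdar2* had 2 probe sets each and the other 6 genes had 1. RNA came from the complete CNS of wandering larvae of the third instar raised at 25 °C, with 10 to 15 larvae pooled for each sample.

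HtlACT larvae (repoGal4>UAS-Htl[ACT]) expressed an activated FGF receptor in glia, and InR larvae (repoGal4>UAS-InR) overexpressed the insulin receptor in glia. Control larvae (repoGal4/+) carried the glial driver alone, so the driver was shared by all 3 genotypes. Each genotype had 3 Affymetrix Drosophila Genome 2.0 arrays. The genotypes were made to increase the number of glia in the tissue, and each transgene was expressed in glia and not in neurons. A signal pools all cell types of the dissected tissue. Each array used 500 ng of RNA and was scaled to the same mean, so a signal is relative to the RNA of the whole sample. Fewer cells of a type, less RNA per cell and a larger share of RNA from other cells cannot be told apart. Whether the triplicate samples came from separate dissections is not stated beyond that word, so p-values measure the spread between these samples.

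Ionotropic glutamate receptors are cation channels that open when glutamate binds, and they are sorted into AMPA, kainate and NMDA types by relation to the mammalian receptors. Metabotropic receptors signal through G proteins instead. In the fly, acetylcholine is the main fast excitatory transmitter of the CNS, while glutamate excites muscle at the larval neuromuscular junction and acts in the CNS on several receptor types, including a glutamate-gated chloride channel. Glia take up glutamate and convert it to glutamine.

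*KaiR1D*, *Nmdar1* and *GluRIA* were lower in HtlACT than in control CNS, by 2.43-fold, 1.68-fold and 1.87-fold, and *KaiR1D* was lower by 1.71-fold in InR CNS. None of the 4 genes tested was called higher, where 13.0% of all genes tested were called higher in HtlACT and 9.24% in InR CNS. In HtlACT CNS the log2 fold changes of *Nmdar1* (−0.74) and *GluRIA* (−0.91) lay within the range of 10 pan-neuronal markers (−1.23 to −0.70). That of *KaiR1D* (−1.28) lay just below this range. In InR CNS the change of *KaiR1D* (−0.78) lay within the range of the same markers (−0.82 to −0.24). None of the 4 tested receptors was called once the signals were taken relative to those markers. On that scale 0.339% of all genes were called lower in HtlACT and 0.199% in InR CNS.

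The labelled tissue was checked against its markers. All 10 pan-neuronal markers on the array, of 12 listed, were measured in every group. Their summed signal was 13720 to 18092 on HtlACT arrays and 19659 to 22417 on InR arrays, against 29209 to 30229 on control arrays. Summed signals of 11 glial markers were 70184 to 80794 on HtlACT arrays and 46027 to 48444 on InR arrays, against 27507 to 30511 on control arrays. Other tissue also varied. Fat body markers summed to 27612 and 17665 on InR arrays 2 and 3 and to 13016 on control array 2, against 5808 and 6792 on the other 2 control arrays. They summed to 8084 on InR array 1 and to 13490 to 14672 on HtlACT arrays. Of the 4 fat body markers tested, 3 had negative log2 fold changes in HtlACT CNS (median −0.76), where 1 was called higher (1.18). In InR CNS 0 of 4 were negative (median 1.59). Ring gland markers summed to 1443 to 1695 on HtlACT arrays and 2470 to 4395 on InR arrays, against 787 to 948 on control arrays. Neuroblast markers were called lower for 7 of 8 genes in HtlACT and 3 of 8 in InR CNS, and eye disc markers for 5 of 5 and 1 of 5. Hemocyte markers summed to 210 to 487 on HtlACT arrays and 710 to 1333 on InR arrays, against 502 to 590 on control arrays. The part of these tissues in the receptor signals was not tested.

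Signals were linear MAS5 values scaled to the same mean on every array. Arrays had median signals between 31.5 and 41.8, and the 25th percentile of signal lay between 6.04 and 9.44. The 8552 brighter of 17104 units were tested, each a gene or a probe set naming no gene or several. All of these are counted as genes in the shares given here. *KaiR1D*, *Nmdar1*, *GluRIA* and the brighter *GluRIB* probe set passed this filter. *mGluR*, *Grik*, *Nmdar2* and *clumsy* did not. A gene was called at a change of at least 1.5-fold and an adjusted p of at most 0.05, from limma with Benjamini-Hochberg adjustment over all 8552.

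**Figure D1:**
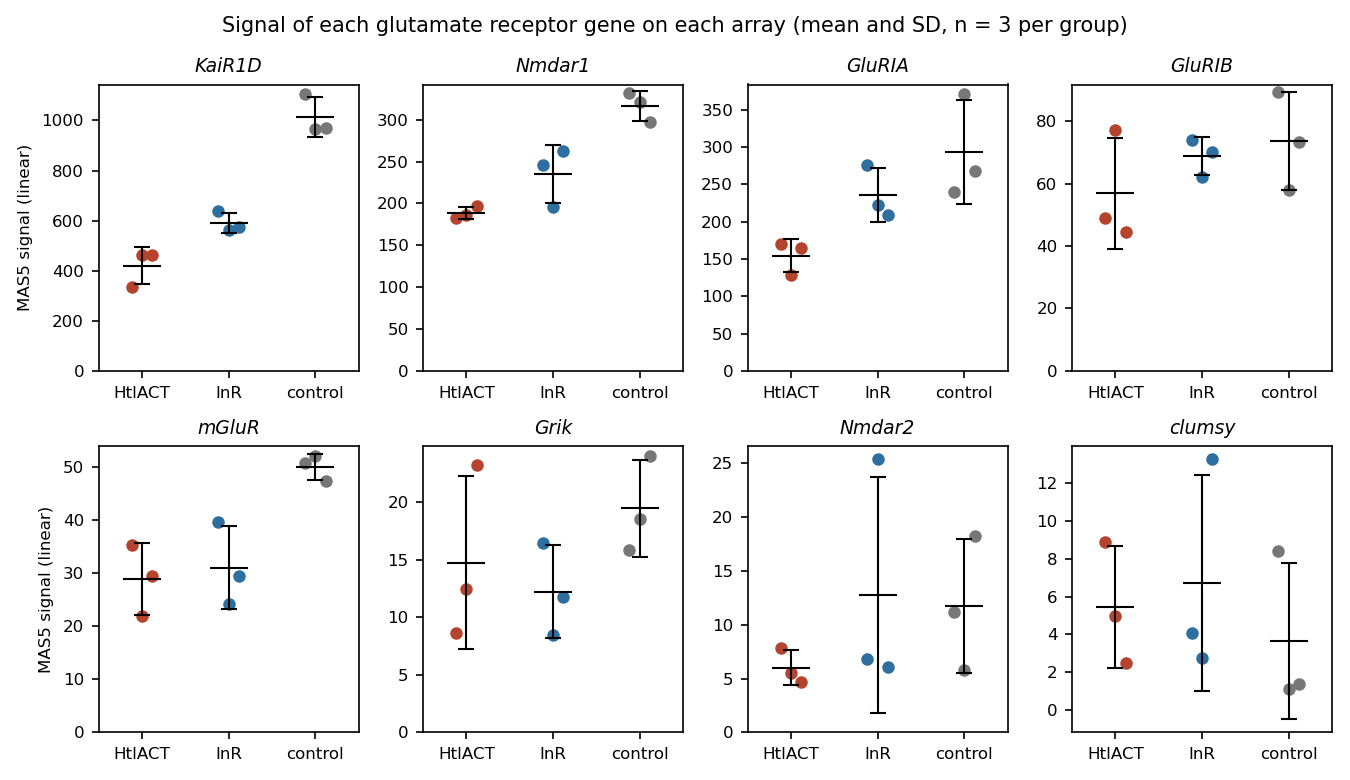
Signal of the 8 genes on each array, with linear MAS5 signal on the y axis and genotype on the x axis. Points are arrays, and the horizontal line and bars are the mean and SD (n = 3). *KaiR1D* and *Nmdar1* were below all control arrays on every HtlACT and InR array, and *mGluR* was too at signals of 21.8 to 51.9.

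*KaiR1D* (CG3822, chromosome arm 3R) encodes a kainate-type subunit that acts as a presynaptic glutamate receptor at the larval neuromuscular junction. Its signal was 335, 463 and 464 on HtlACT arrays and 638, 561 and 576 on InR arrays, against 1105, 964 and 970 on control arrays. The 3 genotypes did not overlap, with HtlACT lowest, InR between and control highest. Means were 421 ± 74.0 in HtlACT, 591 ± 40.9 in InR and 1013 ± 79.5 in control CNS (SD, n = 3 each). The log2 fold change was −1.28 (SE 0.14, 95% confidence interval −1.59 to −0.97, adjusted p = 0.000169) in HtlACT CNS and −0.78 (SE 0.14, adjusted p = 0.00406) in InR CNS. Between HtlACT and InR it was −0.50 (adjusted p = 0.0302), which is 1.42-fold and below the fold limit. With control array 2 and InR arrays 2 and 3 left out, which were high in fat body markers, the InR value was −0.70 and not called (adjusted p = 0.177), from 1 InR array that was assumed to vary like the other groups. With only control array 2 and InR array 2 left out it was −0.77 and called (adjusted p = 0.0455). InR array 1, kept in both fits, had the highest ring gland sum of all arrays, 4395. HtlACT arrays were also kept, although their fat body sums of 13490 to 14672 exceeded the 13016 of control array 2. Of the 4 fat body markers tested, however, 3 had negative log2 fold changes in HtlACT CNS and 1 was called higher (1.18).

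*Nmdar1* (CG2902, 3R) encodes the obligate subunit of the NMDA receptor, a channel that needs both glutamate and membrane depolarisation to open and is required for olfactory learning in the adult fly. Signals were 183, 187 and 197 on HtlACT arrays and 246, 196 and 263 on InR arrays, against 332, 321 and 297 on control arrays. HtlACT arrays lay close together. All HtlACT and InR arrays were below every control array, and InR array 2 fell within the HtlACT range. The log2 fold change was −0.74 in HtlACT CNS (SE 0.11, interval −1.0 to −0.49, adjusted p = 0.000846). In InR CNS it was −0.44 (adjusted p = 0.0184), a 1.36-fold difference that was below the fold limit. The HtlACT change was itself near that limit, at −0.57 after quantile normalization (adjusted p = 0.00511) and −0.57 after median centring (adjusted p = 0.0179), where a call needed 0.58.

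*Nmdar2* (CG33513, X) encodes the partner subunit that forms the channel with *Nmdar1*. Its brighter probe set read 7.87, 5.54 and 4.65 on HtlACT arrays and 6.78, 25.4 and 6.04 on InR arrays, against 11.2, 5.83 and 18.3 on control arrays. The signals spanned 4.65 to 25.4, on both sides of the 25th percentile of the arrays, and the genotypes overlapped. The second probe set was as dim, with group means of 9.87 in HtlACT, 7.63 in InR and 11.6 in control CNS, and neither probe set separated the genotypes. In the fit without the filter the log2 fold change of the brighter probe set in HtlACT CNS was −0.85 (adjusted p = 0.443). With every probe set fitted, that of the second probe set was 0.35 (interval −2.59 to 3.28).

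The AMPA-type genes *GluRIA* (CG8442) and *GluRIB* (CG43743), both on 3L, encode channels related to the mammalian AMPA receptors. *GluRIA* read 170, 129 and 165 on HtlACT arrays and 276, 222 and 209 on InR arrays, against 239, 371 and 267 on control arrays. All HtlACT arrays were below all control and all InR arrays, whereas InR and control overlapped. The log2 fold change of *GluRIA* was −0.91 in HtlACT CNS (SE 0.19, interval −1.34 to −0.47, adjusted p = 0.00421) and −0.30 in InR CNS (adjusted p = 0.254). Between HtlACT and InR it was −0.61 (SE 0.19, adjusted p = 0.04996), which is called but at the limit, and the call was lost in 17 of the 22 alternatives tried.

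*GluRIB* read 49.0, 77.1 and 44.4 on HtlACT arrays and 74.0, 62.2 and 70.2 on InR arrays, against 89.2, 57.8 and 73.4 on control arrays. All 3 groups overlapped. The log2 fold change was −0.39 in HtlACT CNS (interval −0.92 to 0.13, adjusted p = 0.174) and −0.08 in InR CNS (adjusted p = 0.818). HtlACT array 2 decided the first of these, since without it the value was −0.63 and called (adjusted p = 0.0215). The second probe set of *GluRIB* was near background, with means of 4.26 in HtlACT, 9.15 in InR and 10.9 in control CNS, and a log2 fold change of −1.20 in HtlACT CNS in the fit without the filter (interval −3.14 to 0.75).

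*Grik* (CG5621, 3R) and *clumsy* (CG8681, 2L) encode further kainate-type subunits. *Grik* lies near *KaiR1D* on the same arm, with 10 annotated genes between them, 5 of which code for protein (*TotA*, *TotC*, *TotB*, *TotZ* and *Ktl*). *Grik* read 8.61, 12.4 and 23.2 on HtlACT arrays and 16.4, 8.42 and 11.8 on InR arrays, against 15.8, 18.5 and 24.0 on control arrays. *clumsy* read 8.91, 4.97 and 2.48 on HtlACT arrays and 4.07, 2.76 and 13.3 on InR arrays, against 8.43, 1.1 and 1.38 on control arrays. For both genes the genotypes overlapped, and the spread within a genotype was as wide as the difference between them. In the fit without the filter the log2 fold change of *Grik* was −0.50 in HtlACT (adjusted p = 0.481) and −0.70 in InR CNS (adjusted p = 0.363), and neither was called. That of *clumsy* was positive, at 1.03 in HtlACT (adjusted p = 0.542) and 1.18 in InR CNS (adjusted p = 0.538), and was not called either.

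*mGluR* (CG11144, chromosome 4) encodes the metabotropic glutamate receptor of the fly, which couples to inhibitory G proteins. It read 35.3, 21.8 and 29.4 on HtlACT arrays and 39.5, 24.1 and 29.4 on InR arrays, against 50.6, 51.9 and 47.3 on control arrays. Every HtlACT and InR array was below every control array, and HtlACT and InR overlapped. Its mean signal was rank 8557 and so just missed the filter, with 35.1 for the dimmest gene tested. Fitted without the filter, over 17104 genes, *mGluR* was lower by 1.77-fold in HtlACT CNS (log2 fold change −0.82, SE 0.23, interval −1.37 to −0.27, adjusted p = 0.0458). The same fit gave −0.72 in InR CNS (adjusted p = 0.11). The HtlACT call was lost in 6 of 9 fits that left out 1 array in turn, with adjusted p between 0.0361 and 0.125, and after quantile normalization (−0.66, adjusted p = 0.128) or median centring (−0.65, adjusted p = 0.176) without the filter. It was called under the filter in HtlACT against control with quantile normalization, with the mean of probe sets and with every probe set on its own, each of which let *mGluR* pass the filter.

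**Figure D2:**
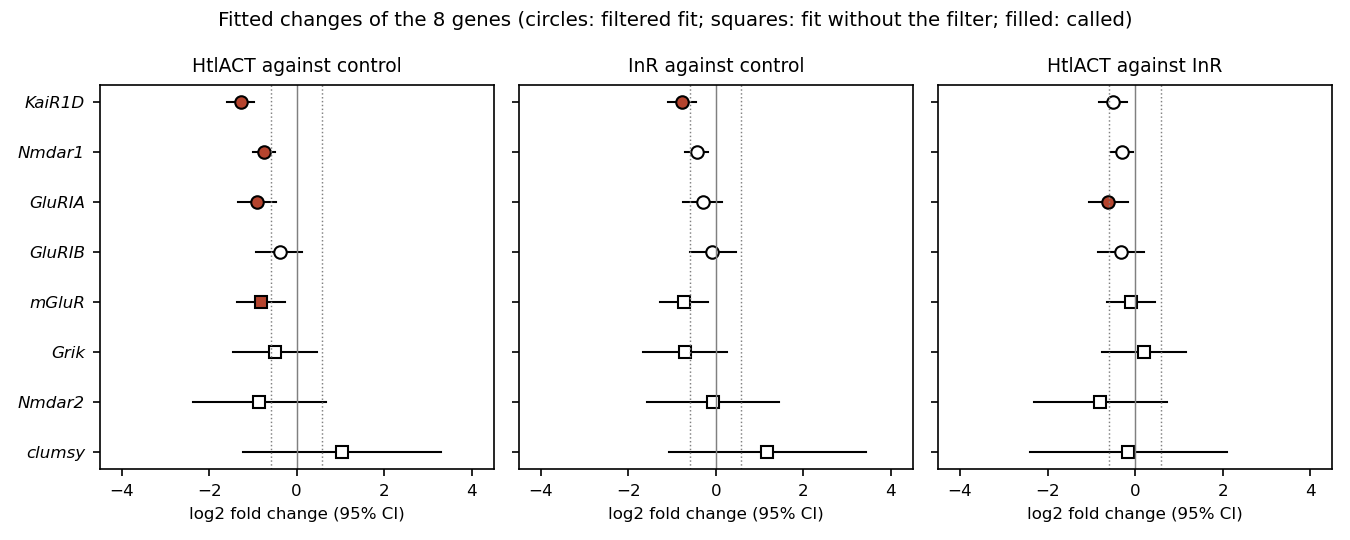
Log2 fold change (x axis) of the 8 genes in the 3 comparisons, with 95% confidence intervals as lines. Circles come from the fit of 8552 genes and squares from the fit without the filter. Filled symbols were called, and dotted lines mark the 1.5-fold limit. *KaiR1D* was called against control in both tissues, and the intervals of *Grik*, *Nmdar2* and *clumsy* all spanned 0.

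Of the 4 members tested, 3 were called lower in HtlACT CNS, where 19.2% of all genes tested were called lower and 13.0% higher. The median log2 fold change of the members was −0.83, against −0.15 for all genes tested. In InR CNS 1 of 4 was called lower and 0 higher, against 6.57% and 9.24% of all genes, and the medians were −0.37 for the members and −0.09 for all genes. In HtlACT against InR, 1 of 4 was called lower and 0 higher, against 6.45% and 5.43% of all genes, with medians of −0.41 and −0.08. Over all 8 members in the fit without the filter, 4 were called lower in HtlACT CNS (8.92% of all genes), 1 in InR CNS (2.03%) and 0 in HtlACT against InR (2.14%). By groups that did not overlap, 4 of 8 members were lower in HtlACT and 3 of 8 in InR CNS than in control CNS, against 23.2% and 18.3% of all genes, and 2 of 8 were lower in HtlACT than in InR CNS, against 16.9%. Both comparisons with control use the same 3 control arrays.

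*KaiR1D* and *Nmdar1* followed each other most closely of the 4 members tested. Their log2 signals had a Pearson r of 0.94 over the 9 arrays, against 0.79 for *GluRIA* with *Nmdar1*, 0.76 for *GluRIA* with *KaiR1D* and 0.19 for *GluRIA* with *GluRIB*. These values describe arrays that share genotype, and carry no test. The log2 ratio of *KaiR1D* to *Nmdar1* changed by −0.54 in HtlACT and by −0.34 in InR CNS relative to control CNS, with no overlap of the groups. That of *KaiR1D* to *GluRIB* changed more, by −0.89 and −0.70, also with no overlap. The exact permutation test gave p = 0.1 for each of these changes, the smallest that 3 arrays against 3 allow. Adjusted p was 0.45 over 18 such comparisons, and the groups overlapped in all others. The genes most like *KaiR1D* over the 9 arrays, of 7365 compared, were *CG12605* (r = 0.997), *CG5180* (0.995) and *Reph* (0.994). For *Nmdar1* they were *Chd1* (0.987), *CG8407* (0.984) and *CG33543* (0.979). For *GluRIA* they were *CG15237* (0.954), *CG14186* (0.95) and *car* (0.942), and for *GluRIB* *Atg4b* (0.922), *Aptx* (0.918) and *bab2* (0.910).

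The receptors were next set against the pan-neuronal markers, which include the synaptic vesicle protein gene *nSyb* and the RNA-binding protein gene *elav*. All 10 of these were called lower in HtlACT CNS, with a median log2 fold change of −1.0 and a range of −1.23 to −0.70, and 2 of 10 in InR CNS, with a median of −0.54. When the log2 signals of each array were centred on these markers, the change of *KaiR1D* was −0.29 in HtlACT CNS (interval −0.64 to 0.05, adjusted p = 0.113) and −0.21 in InR CNS (adjusted p = 0.295). *GluRIA* and *Nmdar1* turned in direction in HtlACT CNS, to 0.08 (adjusted p = 0.775) and 0.24 (adjusted p = 0.215), and *GluRIB* stood at 0.60 (interval 0.04 to 1.16, adjusted p = 0.0533). No tested member was called in any of the 3 comparisons on this scale. Of all genes, 0.339% were called lower in HtlACT CNS, 0.199% in InR CNS and 1.91% in HtlACT against InR. Lower calls were thus rare for any gene, and the share called higher was not counted. The centring moved the median of all genes tested to 0.84 in HtlACT CNS, 0.48 in InR CNS and 0.34 in HtlACT against InR. *KaiR1D* relative to the markers was −1.04, −0.96 and −1.13 on HtlACT arrays and −0.85, −0.90 and −1.11 on InR arrays, against −0.56, −0.83 and −0.86 on control arrays. HtlACT arrays were still all below control arrays on this log2 scale, while InR and control arrays overlapped.

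**Figure D3:**
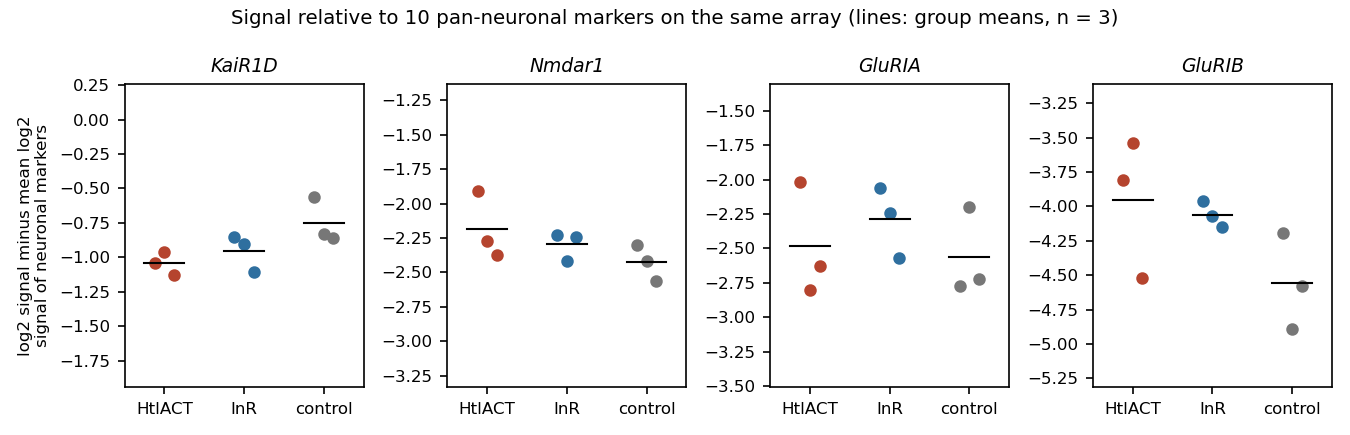
Log2 signal of the 4 tested genes minus the mean log2 signal of 10 pan-neuronal markers on the same array (y axis), by genotype (x axis). Points are arrays and lines group means (n = 3), and all panels span the same range. *KaiR1D* lay between −1.13 and −0.96 on HtlACT arrays and between −0.86 and −0.56 on control arrays, while HtlACT and control arrays of *Nmdar1* and *GluRIA* overlapped.

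Receptor genes for other transmitters had decreases of a like size in HtlACT CNS. Of 9 nicotinic acetylcholine receptor subunits, 8 were called lower, with a list median of −1.05. Among them were *nAChRalpha7* at −1.34 (adjusted p = 0.00829), *nAChRalpha1* at −1.20 (adjusted p = 0.00291) and *nAChRbeta2* at −1.11 (adjusted p = 6.45e-05). *nAChRbeta3* went the other way, at 4.5 in HtlACT (adjusted p = 5.06e-06) and 1.68 in InR CNS (adjusted p = 0.000771). Of 4 GABA receptor genes tested 3 were called lower in HtlACT CNS, with a median of −0.99. These were the ligand-gated channel subunits *Lcch3* at −1.14 (adjusted p = 0.000103) and *Rdl* at −0.87 (adjusted p = 0.0198), and the G protein-coupled *GABA-B-R3* at −1.12 (adjusted p = 0.000546). In InR CNS 1 nicotinic subunit, *nAChRbeta1* at −0.69 (adjusted p = 0.0112), and 1 GABA receptor gene, *GABA-B-R3* at −0.77 (adjusted p = 0.00689), were called lower, with list medians of −0.50 and −0.47.

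Outside the 8 members, 8 further glutamate receptor genes were listed, of which 7 were on the array and 4 were tested. *GluClalpha*, the glutamate-gated chloride channel, read 49.0, 100.5 and 83.9 on HtlACT arrays and 113, 115 and 136 on InR arrays, against 235, 225 and 265 on control arrays. It was lower in both tissues, with log2 fold changes of −1.69 in HtlACT (SE 0.24, adjusted p = 0.000609) and −0.99 in InR CNS (SE 0.24, adjusted p = 0.0142). The kainate-type *Ekar* was higher in InR CNS (0.65, adjusted p = 0.0402), with means of 97.6 in InR and 61.9 in control CNS. It was not called in HtlACT CNS (−0.16, adjusted p = 0.535), and HtlACT against InR gave −0.81 (adjusted p = 0.0249). *CG11155* and *GluRIID*, a subunit of the muscle receptor, were not called in any comparison. The other muscle subunits measured, *GluRIIA*, *GluRIIB* and *GluRIIE*, were below the filter, and their means were 51.8, 26.5 and 11.8 in HtlACT, 13.9, 11.6 and 23.6 in InR, and 14, 10.4 and 20.5 in control CNS. Fitted by limma without the filter, their log2 fold changes in HtlACT CNS were 2.69, 1.63 and −0.93. None was called (adjusted p = 0.0716, 0.346 and 0.271).

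Genes for partners of the receptors and the postsynaptic scaffold were divided. In HtlACT CNS 6 of 12 tested were called lower and 0 higher, with a median of −0.76. The neuroligin genes *Nlg2* (−1.27, adjusted p = 4.95e-05) and *Nlg4* (−1.16, adjusted p = 0.000781), whose products are adhesion proteins of the synapse, were among them, as were *metro* (−1.11, adjusted p = 0.000423), a scaffold gene, and *PICK1* (−0.90, adjusted p = 0.000769). *dlg1*, the fly counterpart of PSD-95, was at 0.18 (adjusted p = 0.183). In InR CNS 3 of 12 were called lower, namely *Nlg3* (−0.63), *metro* (−0.62) and *Nlg4* (−0.59), with adjusted p of 0.00649, 0.0124 and 0.0309. *Grip*, which encodes a PDZ-domain protein that acts in muscle, was higher in InR CNS (1.17, adjusted p = 0.00257). Muscle markers summed to 1326 to 1955 on InR arrays, against 467 to 605 on control arrays. Of the 4 muscle markers tested, 2 were called higher in InR CNS and 2 were negative and not called (range −0.63 to 2.58). The part of muscle in the change of *Grip* was not tested.

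Second messenger genes moved in both directions in HtlACT CNS, with 5 of 13 called higher and 5 lower. The inward rectifier potassium channel genes *Irk3* (2.44, adjusted p = 2.73e-05) and *Irk1* (1.0, adjusted p = 0.000143) were higher. *CanA-14F*, a catalytic subunit of calcineurin (−1.03, adjusted p = 0.000258), and *Pka-R1*, a regulatory subunit of protein kinase A (−0.99, adjusted p = 0.00175), were lower. In InR CNS *CanA-14F* (−0.62, adjusted p = 0.00581) and *Pka-R1* (−0.61, adjusted p = 0.0269) were lower, and *Itpr*, the inositol trisphosphate receptor gene (0.65, adjusted p = 0.0206), was higher.

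Genes of glutamate release, uptake and metabolism also moved in both directions. In HtlACT CNS 4 of 10 tested were called higher and 3 lower. *gb*, a transporter gene required in glia, averaged 6089 ± 783 in HtlACT and 2031 ± 235 in InR CNS, against 1840 ± 96.9 in control CNS (SD, n = 3), a log2 fold change of 1.72 in HtlACT CNS (adjusted p = 2.56e-05). *Got2*, a mitochondrial aspartate aminotransferase gene, was higher by 1.15 (adjusted p = 4.47e-05). Lower were *Eaat2*, an excitatory amino acid transporter gene (−1.37 in HtlACT, adjusted p = 0.000218, and −0.76 in InR CNS, adjusted p = 0.00743), and *Gad1*, whose product makes GABA from glutamate (−1.15, adjusted p = 0.0045, and −0.93, adjusted p = 0.0204). No gene of this list was called higher in InR CNS. The vesicular transporter gene *VGlut* was below the filter, with means of 12.6 in HtlACT, 3.95 in InR and 15.5 in control CNS. Of 11 glial markers, 9 were higher in HtlACT CNS (median 1.32) and 4 in InR CNS (median 0.43), and their part in these changes was not tested.

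**Figure D4:**
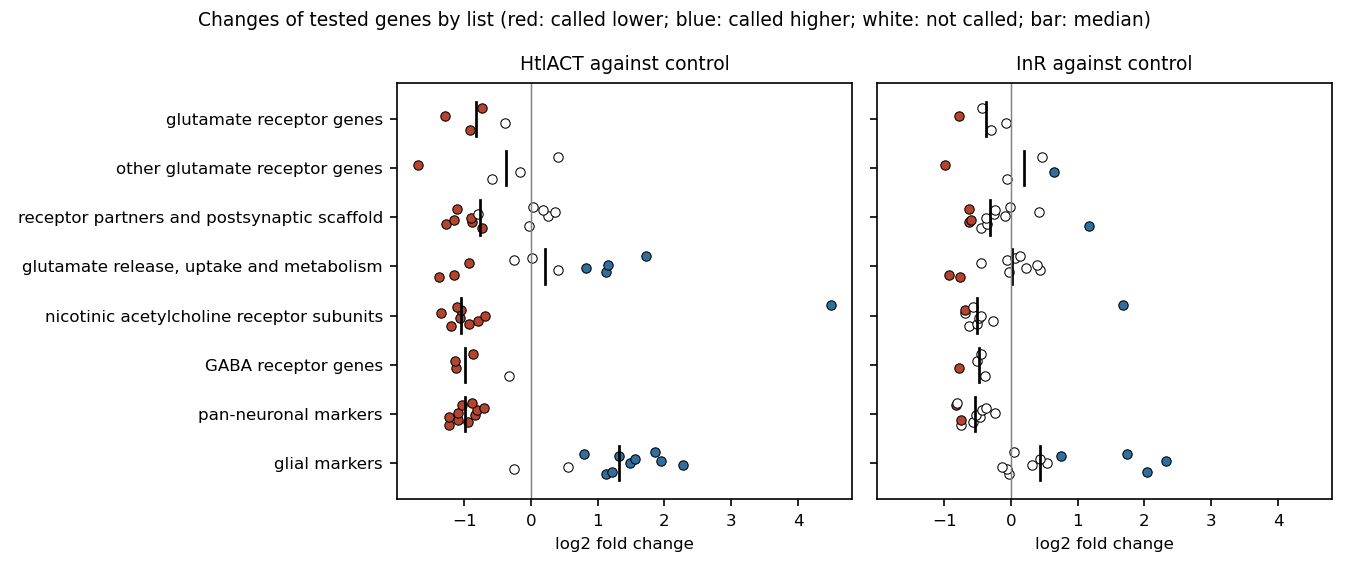
Log2 fold change (x axis) against control of each tested gene, by gene list (y axis), in HtlACT (left) and InR CNS (right). Points are genes, red for called lower, blue for called higher and white for not called, and bars are list medians. In HtlACT CNS the medians of the glutamate, nicotinic and GABA receptor genes were −0.83, −1.05 and −0.99, beside −1.0 for the pan-neuronal markers.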

How the data were processed

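The authors hybridised cRNA made from 500 ng of RNA and computed the values with MAS 5.0 in Affymetrix Expression Console, whose version is not given in the sources used here. The deposited values are linear signals (intensity), with background removed, and each of the 9 arrays was brought to a trimmed mean of 500.0 (2% trimmed). They are neither logged nor centred. The study called genes with SAM at 1.5-fold. SAM could not be run here and limma 3.58.1 (R 4.3.3) was used instead, and detection calls were not used. The number of arrays limits the precision.

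After removal of 183 control probe sets out of 18952, 1 gene was named by 13647, several by 402 and none by 4720, and 13544 identifiers were found in the gene table. Symbols, CG numbers, arms, gene positions and the protein-coding label were used from it, and no coordinates are given. For a gene with several probe sets the brightest was used. log2 signals of the 8552 brighter of 17104, by mean over all arrays, were fitted to 3 groups (6 residual degrees of freedom, prior 2.09). Tables and plots were made with Python 3.11.15, numpy 2.4.6, pandas 2.3.3 and matplotlib 3.10.9. The calculation was tested on simulated data.

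The receptor genes and all lists were chosen with earlier results of these data known. From each list up to 4 called genes per comparison with control, those with the largest change, are named. *dlg1*, *VGlut* and other list genes given without a call were named after their values were seen. *Eaat1*, *Gat* and *Gs2* are in both the glial and the glutamate metabolism list.

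The labels number the replicates in each genotype. After subtracting group means, same-numbered InR and control arrays had correlations of 0.50, 0.37 and 0.23. For HtlACT and control they were −0.04, −0.06 and 0.20. Whether same-numbered arrays were paired is not given by the design. The main fit and its p-values did not pair them, and the replicate number was a block only in an alternative fit. Alternatives were quantile normalization, median centring, centring on pan-neuronal markers, other filters, a pseudocount of 7.96, the 6 arrays of a comparison, the replicate block, limma's trend and robust options, unadjusted p, the study's false discovery rates, other uses of probe sets and arrays left out. Leaving out control array 2 and InR array 2 alone was added after seeing the data.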

Additional observations from a re-analysis of the deposited data

Results flagged for a closer look

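*GluRIA* differed between the genotypes, with a log2 fold change of −0.61 in HtlACT against InR CNS (SE 0.19, limma, adjusted p = 0.04996), while its values against control were −0.91 in HtlACT and −0.30 in InR CNS. All 3 HtlACT arrays (170, 129 and 165) were below all 3 InR arrays (276, 222 and 209). The adjusted p ranged from 0.0285 to 0.559 over 22 alternatives, and the call was lost in 17 of them. Its log2 fold change was lower than 0 in all 22, from −0.85 to −0.19. Many of these could not alter the value of −0.61, since they change only the filter, the spread, the limit, the use of probe sets or control arrays.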

How the results depend on the processing

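The 3 calls of receptor genes in HtlACT against control became 0 after centring on pan-neuronal markers, where *GluRIA* (0.08) and *Nmdar1* (0.24) turned in direction, and 1 among the brightest 5701 genes, where *KaiR1D* alone was tested. They became 2 with median centring, without *Nmdar1*, and were 3 with quantile normalization, with *mGluR* called and *Nmdar1* not. They ranged from 3 to 4 when 1 array was left out. The single call in InR against control became 2 with quantile normalization, with the mean of probe sets or with every probe set on its own, each time with *mGluR* as the second, and 0 after centring on the markers. It ranged from 1 to 1 with 1 array left out, and was 0 without control array 2, InR array 2 and InR array 3 together (*KaiR1D* −0.70, adjusted p = 0.177). The call in HtlACT against InR became 0 with quantile normalization, median centring, centring on the markers, no filter, the brightest 5701, the pseudocount, the replicate block, the mean of probe sets, every probe set on its own, without control array 2 and InR array 2, and without these and InR array 3. With 1 array left out it ranged from 0 to 1. The cause was not tested. With the replicate number as a block, 3 members were called in HtlACT against control and 1 in InR against control, and no call changed beyond that of *GluRIA* in HtlACT against InR (adjusted p = 0.0847). Median log2 fold changes of all genes tested were −0.07 in HtlACT and −0.09 in InR CNS after quantile normalization, and 0.02 and −0.20 after median centring. *KaiR1D* was lower than control under all 24 alternatives, from −1.36 to −0.29 in HtlACT and from −0.88 to −0.21 in InR CNS. Many alternatives could not alter this value, which stayed at −1.28 and −0.78. They change only the filter, the spread, the limit, the use of probe sets or arrays outside the comparison. The low signals of *Nmdar2*, *Grik* and *clumsy*, with mean signals of 8.58, 14.5 and 3.9 (geometric, all arrays), limit what could be seen for these genes.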
